A study of Mus musculus with 4 samples.

Results

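Genes that mark macrophages were read in primary cultures of cells from the mouse inner ear, in 2 vestibular and 2 cochlear libraries, and all 43 listed symbols were found among the 24346 symbols in each file. The vestibular organs serve balance and the cochlea serves hearing. The genes were chosen as transcription factors, receptors, complement proteins and phagocytosis proteins of macrophages, and their levels are given as FPKM (fragment numbers corrected for transcript length and sequencing depth), so levels of different genes can be set side by side. The vestibular libraries come from primary cultures of vestibular cells and the cochlear libraries from primary cultures of cochlear cells. All 4 are labelled as inner ear of Mus musculus, and the labels name no strain, age, treatment or time in culture. Whether the numbered libraries of a group are separate cultures or animals is not stated, and p-values therefore reflect only the spread between these samples, which may be technical.

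Macrophages are phagocytes that live in nearly every tissue, the inner ear included, where they lie among the connective tissue, the blood vessels and the nerve fibres. Their development and survival depend on the transcription factor PU.1, the product of Spi1, and on signals from the colony stimulating factor 1 receptor, the product of Csf1r. They take up dying cells and tagged particles through Fc receptors, complement and scavenger receptors, and many of these receptors signal through small adaptor proteins with a tyrosine motif, called ITAM adaptors. Tissue macrophages commonly make the C1q chains, lysozyme and the phagocyte oxidase.

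Cochlear 2 stood apart in these genes from the other 3 libraries. The summed level of the 43 genes was 11174 and 8200 FPKM in vestibular 1 and 2, 8826 FPKM in cochlear 1 and 68.6 FPKM in cochlear 2. That sum made up 2.15% and 1.60% of the FPKM total in the vestibular libraries, 1.71% in cochlear 1 and 0.0143% in cochlear 2. The number of the genes at 1 FPKM or more was 41 and 40 in the vestibular libraries and 40 and 10 in the cochlear libraries. Lyz2 held a large share of the sums, and without it they were 6072 and 3954 FPKM in the vestibular libraries and 4924 and 58.3 FPKM in the cochlear libraries. In bulk RNA, fewer macrophages and less of these RNAs per macrophage cannot be told apart. By the defining genes the macrophage label matched vestibular 1 and 2 and cochlear 1, while in cochlear 2 most of those genes lay at or near 0. The members listed at 0 there were Spi1, Pf4, Lyve1 and Timd4. Rpl26, a ribosomal protein gene that every cell uses, is also listed at 0 throughout, and an exact 0 can therefore be a failed estimate.

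**Figure D1:**
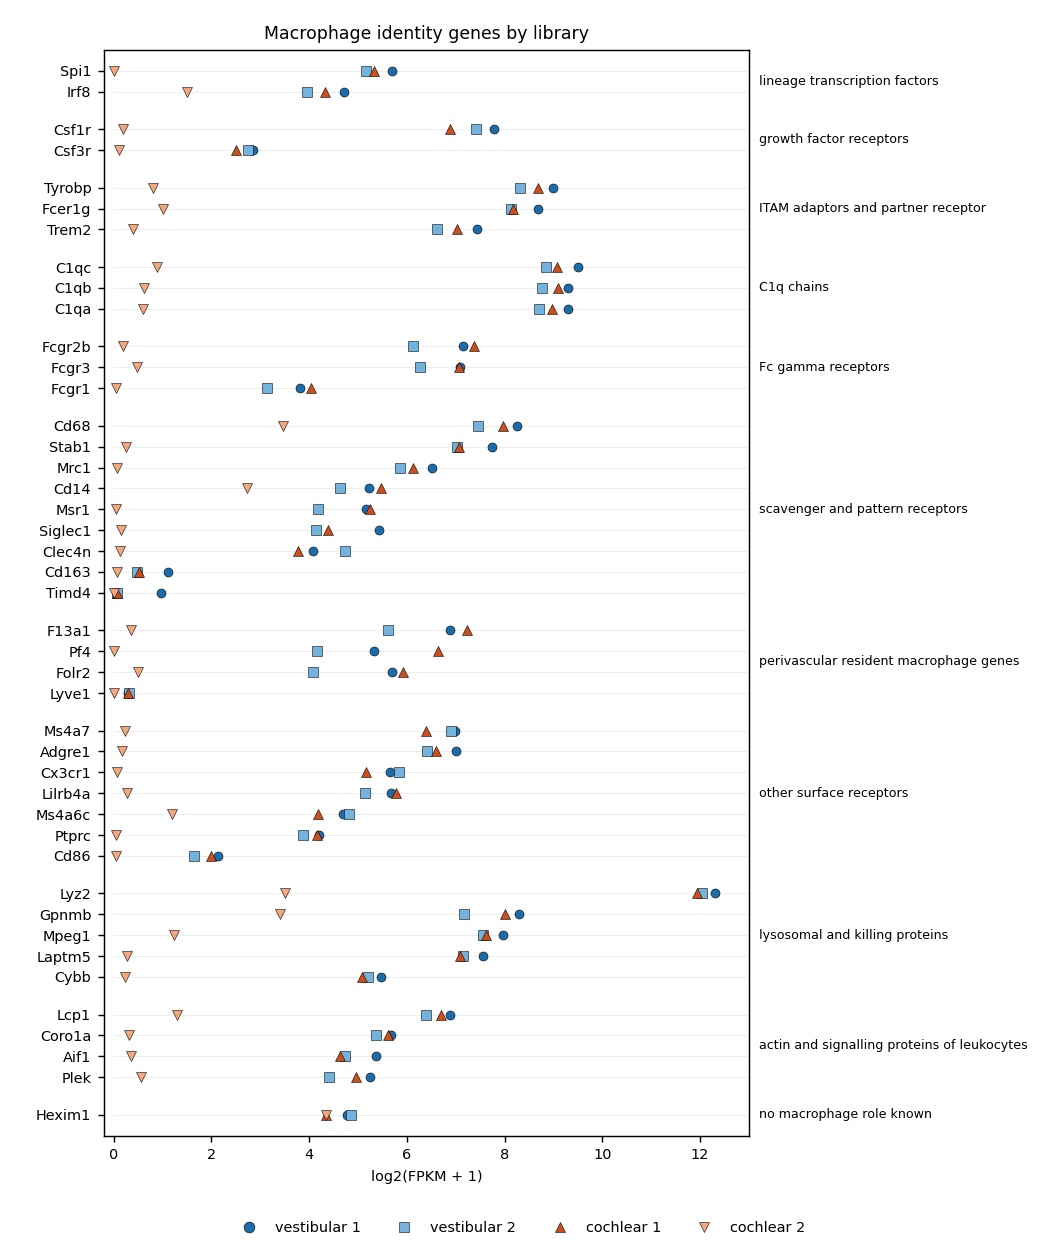
Level of each of the 43 genes on the log2(FPKM + 1) scale (horizontal axis) in the 4 libraries (symbols), grouped by role. Cochlear 2 lies far left of the other 3 libraries for most genes, while Hexim1 has all 4 close together and Cd163, Timd4 and Lyve1 are low throughout.

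Vestibular and cochlear cultures were compared with limma on log2(FPKM + 1), and no macrophage gene passed. Genes with a mean of at least 1 FPKM over the 4 libraries were kept, which left 40 of the 43, since Cd163, Lyve1 and Timd4 were too low. All 40 had a positive log2 difference (vestibular minus cochlear), against 51.4% of the 13200 genes kept, and the median difference was 2.59, against 0.01 over all genes kept. With Benjamini-Hochberg adjustment over all genes, limma called 0 of the 40 (0.0303% of all genes kept were called), and the smallest adjusted p among them was 0.179, for Hexim1. At an unadjusted p under 0.05 there was 1 of the 40, again Hexim1, which was higher in vestibular cultures, against 18.2% of all genes kept in either direction and 7.61% higher in vestibular cultures. The groups did not overlap in 11 of the 40, against 55.3% of all genes kept. In all 11 the vestibular values were the higher ones (0 were the lower), against 26.9% higher and 28.4% lower among all genes kept. The share of members with the higher values in vestibular cultures, 27.5%, is close to that of all genes, 26.9%.

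The size of these differences rested on cochlear 2. Without it 21 of the 40 had a positive log2 difference, the median was 0.02, and both vestibular libraries lay above cochlear 1 in 11 and below it in 8 of the 40, against 36.5% and 36.8% of all genes kept. Without cochlear 1 the median log2 difference of the 40 was 5.27, against 0.0025 over all genes kept. In both fits the lone cochlear library was assumed to vary like the other group. An exact 2-sided permutation test of 1 gene cannot go below p = 0.333 with these 4 libraries.

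PU.1 binds DNA at sites built on the letters GAGGAA, and the promoters of the members were searched for these letters. The bases before the start of 3 members are shown here, chosen as those with the highest mean level that had an entry and whose start was not placed further upstream by GENCODE. They come from RefSeq on GRCm38.p6, run 5′ to 3′ on the strand of the gene, end at the base before the RefSeq start, and carry GAGGAA or its reverse complement in capitals. C1qb lies at chr4:136886201-136886450 on the minus strand, Cd68 at chr11:69666171-69666420 on the minus strand, and Gpnmb at chr6:49036268-49036517 on the plus strand.
C1qb: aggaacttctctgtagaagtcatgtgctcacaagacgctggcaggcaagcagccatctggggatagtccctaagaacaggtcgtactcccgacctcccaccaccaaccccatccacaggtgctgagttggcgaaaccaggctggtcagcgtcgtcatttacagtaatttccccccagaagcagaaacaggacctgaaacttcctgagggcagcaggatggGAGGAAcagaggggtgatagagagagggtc
Cd68: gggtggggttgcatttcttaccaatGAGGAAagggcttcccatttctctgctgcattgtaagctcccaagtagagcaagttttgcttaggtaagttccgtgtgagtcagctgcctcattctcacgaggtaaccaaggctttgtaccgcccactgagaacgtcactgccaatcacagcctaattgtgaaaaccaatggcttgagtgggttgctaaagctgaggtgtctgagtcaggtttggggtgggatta
Gpnmb: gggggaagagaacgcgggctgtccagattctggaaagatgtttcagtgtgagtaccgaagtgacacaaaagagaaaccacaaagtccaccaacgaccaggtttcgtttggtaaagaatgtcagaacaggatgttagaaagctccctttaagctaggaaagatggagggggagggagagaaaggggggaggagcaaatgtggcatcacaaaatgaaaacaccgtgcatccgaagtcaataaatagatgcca
Counted from the start, the match begins at -30 in C1qb and at -225 in Cd68, and Gpnmb has none in these 250 bases. Of the 43 members 31 matched the RefSeq table, and GAGGAA stood on either strand in the 250 bases before a start in 15 of the 31 (48.4%), against 25.9% of the 27025 genes in the table and 26.0% of the genes kept that matched. The composite ETS-IRF motif (GGAA, any 2 bases, GAAA, on either strand), which PU.1 binds together with IRF factors, stood there in 3 of the 31 (9.68%), against 2.68% of all genes in the table. That second motif was added after the members' values were seen, and it shares the letters GGAA with the first. The 3 members that hold it there are Fcgr2b, Folr2 and Timd4, and none of them holds GAGGAA in these bases. The GAGGAA of Hexim1 begins at the first base of the transcript, so it lies outside these 250 bases and is not counted among the 15. Members with no entry were Cd14, Clec4n, Msr1, Csf1r, Lyve1, Spi1, Adgre1, Lilrb4a, Cd86, C1qa, Siglec1 and Tyrobp. A match describes letters and is not a bound site. The members were chosen as macrophage genes, and whether these matches bear on their levels in cochlear 2 was not tested.

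The lineage transcription factor genes were low in cochlear 2 to different degrees. Spi1, which encodes PU.1, was at 50.8 and 35.0 FPKM in vestibular 1 and 2, at 38.9 FPKM in cochlear 1, and was listed at 0 in cochlear 2. Irf8, an interferon regulatory factor gene that acts with PU.1 in the myeloid lineage, had 25.1 and 14.5 FPKM in the vestibular libraries, against 19.1 and 1.81 FPKM in the cochlear libraries. Cochlear 1 lay between the vestibular libraries for both genes, so the groups overlapped. Irf8 overlaps the predicted coding gene Gm20388 on the same strand in GENCODE, and reads may be shared with it.

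Csf1r and Csf3r were the growth factor receptor genes, and in both the vestibular libraries lay above the cochlear ones. Csf1r, the receptor gene for colony stimulating factor 1 and interleukin 34, was at 219 and 169 FPKM in vestibular 1 and 2, against 116 and 0.148 FPKM in cochlear 1 and 2. Its log2 difference was 4.06 (SE 2.46, limma adjusted p 0.442), and without cochlear 2 it was 0.72. Csf3r, the receptor gene for granulocyte colony stimulating factor, was at 6.22 and 5.76 FPKM in vestibular 1 and 2, against 4.67 and 0.0802 FPKM in cochlear 1 and 2. Csf1r overlaps Hmgxb3 on the other strand, and whether the counting used strand is not given in the sources used here.

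The ITAM adaptor genes were among the more abundant members. Tyrobp, which encodes the adaptor DAP12, was at 510 and 319 FPKM in vestibular 1 and 2, against 410 and 0.756 FPKM in cochlear 1 and 2. Fcer1g, which encodes the common Fc receptor gamma chain, measured 408 and 278 FPKM in vestibular 1 and 2, against 289 and 1.002 FPKM in cochlear 1 and 2. Trem2, a lipid-sensing receptor gene whose product pairs with DAP12, had 172 and 97.1 FPKM in vestibular 1 and 2, against 130 and 0.306 FPKM in cochlear 1 and 2. For all 3, cochlear 1 lay between the vestibular libraries. The FPKM of Trem2 per FPKM of Tyrobp was 0.336 and 0.304 in the vestibular libraries and 0.316 and 0.405 in the cochlear libraries. Fcer1g per Tyrobp was 0.799 and 0.872 in the vestibular libraries and 0.705 and 1.33 in the cochlear libraries, so cochlear 2, where these levels are near 1 FPKM or below, had the highest value of both ratios.

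The C1q chain genes shared 1 order of libraries, vestibular 1, cochlear 1, vestibular 2 and cochlear 2 from high to low. These chains assemble into the recognition molecule of the classical complement pathway, and the genes lie side by side on chromosome 4 of mm10 on the minus strand, C1qb at 136880129 to 136886187, C1qc at 136889804 to 136893065 and C1qa at 136895917 to 136898803. Their summed level was 1981 and 1314 FPKM in vestibular 1 and 2, against 1582 and 1.90 FPKM in cochlear 1 and 2. The mean of C1qc was 590 ± 184 FPKM in vestibular and 268 ± 378 FPKM in cochlear cultures (SD, n = 2 each), a difference smaller than the spread between the cochlear libraries. Its log2 difference was 4.19 (SE 3.01, limma adjusted p 0.501). The FPKM of C1qa per FPKM of C1qc was 0.873 and 0.912 in the vestibular libraries and 0.931 and 0.605 in the cochlear libraries, the lowest in cochlear 2. For C1qa and C1qb the adjusted p was 0.505 and 0.509. Without cochlear 2 the log2 differences of C1qa, C1qb and C1qc were 0.04, -0.06 and 0.10.

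Fc gamma receptor genes, whose products bind antibody-coated particles, were in cochlear 1 close to or above the higher vestibular level. Fcgr2b, the inhibitory receptor gene, was at 142 and 68.6 FPKM in vestibular 1 and 2, against 164 and 0.135 FPKM in cochlear 1 and 2. Fcgr3, an activating receptor gene, was at 136 and 76.4 FPKM in vestibular 1 and 2, against 134 and 0.394 FPKM in cochlear 1 and 2. Fcgr1, the high-affinity receptor gene, measured 13.02 and 7.83 FPKM in vestibular 1 and 2, against 15.4 and 0.0379 FPKM in cochlear 1 and 2. Vestibular 2 was the lower of the vestibular libraries for all 3. The FPKM of Fcgr2b per FPKM of Fcgr3 was 1.05 and 0.898 in the vestibular libraries and 1.23 and 0.342 in the cochlear libraries. Fcgr2b and Fcgr3 are related in sequence, and reads could be split between them.

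Scavenger and pattern receptor genes differed in how much of their level was left in cochlear 2. Cd68, a lysosomal glycoprotein gene, was at 303 and 175.5 FPKM in vestibular 1 and 2, against 248 and 9.98 FPKM in cochlear 1 and 2. Cd14, the co-receptor gene for bacterial lipopolysaccharide, had 36.2 and 23.7 FPKM in vestibular 1 and 2, against 43.2 and 5.59 FPKM in cochlear 1 and 2. These were the members of the group with the highest values in cochlear 2. Stab1, a gene for a large endocytic receptor, was at 214 and 129 FPKM in vestibular 1 and 2, against 133 and 0.197 FPKM in cochlear 1 and 2, and overlaps Nt5dc2 on the other strand. Mrc1, the mannose receptor gene, measured 90.3 and 56.9 FPKM in vestibular 1 and 2, against 69.1 and 0.0529 FPKM in cochlear 1 and 2. Cochlear 1 lay between the vestibular libraries for Cd68, Stab1 and Mrc1 and above both for Cd14. Msr1, the class A scavenger receptor gene, had 35.0 and 17.1 FPKM in vestibular 1 and 2, against 37.1 and 0.0263 FPKM in cochlear 1 and 2. Siglec1, the gene of the sialic acid receptor sialoadhesin, was at 42.0 and 16.5 FPKM in vestibular 1 and 2, against 19.9 and 0.102 FPKM in cochlear 1 and 2. Clec4n, the Dectin-2 gene, went the other way between the vestibular libraries, with 16.0 and 25.5 FPKM in vestibular 1 and 2, against 12.7 and 0.0965 FPKM in cochlear 1 and 2. Cd163 and Timd4, receptor genes for haemoglobin complexes and for phosphatidylserine, were low in every library. Cd163 had 1.17 and 0.381 FPKM in the vestibular libraries, against 0.439 and 0.0429 FPKM in the cochlear libraries. Timd4 was at 0.958 and 0.0479 FPKM in vestibular 1 and 2, against 0.0469 FPKM in cochlear 1, and was listed at 0 in cochlear 2.

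Genes that mark perivascular and other long-lived resident macrophages had their highest level in cochlear 1, apart from Lyve1. F13a1, which encodes the A chain of coagulation factor XIII, was at 116 and 48.3 FPKM in vestibular 1 and 2, against 148 and 0.272 FPKM in cochlear 1 and 2. Pf4, the platelet factor 4 gene, was at 39.1 and 16.9 FPKM in vestibular 1 and 2, against 97.9 FPKM in cochlear 1, and was listed at 0 in cochlear 2. Folr2, the folate receptor beta gene, measured 50.6 and 16.0 FPKM in vestibular 1 and 2, against 59.7 and 0.415 FPKM in cochlear 1 and 2. All 3 had their order as cochlear 1, vestibular 1, vestibular 2, cochlear 2 from high to low. Without cochlear 2 their log2 differences were -0.97 for F13a1, -1.04 for Folr2 and -1.89 for Pf4, and none passed limma. Lyve1, a hyaluronan receptor gene, was at 0.218 and 0.235 FPKM in vestibular 1 and 2, against 0.231 FPKM in cochlear 1, and was listed at 0 in cochlear 2. Pf4 is also a platelet gene, and of 9 platelet and megakaryocyte genes 6 were under 1 FPKM in all 4 libraries, with Ppbp at most 0.240 FPKM and Gp9 at most 0.150 FPKM.

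Other surface receptor genes included several with both vestibular libraries above cochlear 1. Ms4a7, a macrophage gene of the four-transmembrane MS4A family, was at 126 and 119 FPKM in vestibular 1 and 2, against 82.8 and 0.168 FPKM in cochlear 1 and 2. Cx3cr1, the fractalkine receptor gene, had 49.2 and 56.2 FPKM in vestibular 1 and 2, against 34.9 and 0.0509 FPKM in cochlear 1 and 2. Ms4a6c, of the same family as Ms4a7, was at 24.9 and 27.3 FPKM in vestibular 1 and 2, against 17.2 and 1.27 FPKM in cochlear 1 and 2. The groups did not overlap in these 3, and their log2 differences of 3.64 (Ms4a7), 3.13 (Cx3cr1) and 2.07 (Ms4a6c) did not pass limma (adjusted p 0.454, 0.439 and 0.399). Adgre1, which encodes the F4/80 antigen, measured 128 and 84.5 FPKM in vestibular 1 and 2, against 95.97 and 0.119 FPKM in cochlear 1 and 2. Lilrb4a, an inhibitory receptor gene, had 49.8 and 34.3 FPKM in vestibular 1 and 2, against 53.8 and 0.210 FPKM in cochlear 1 and 2. Ptprc, the gene of the pan-leukocyte antigen CD45, was at 17.4 and 13.8 FPKM in vestibular 1 and 2, against 16.9 and 0.0363 FPKM in cochlear 1 and 2. The groups overlapped in those 3 genes and in Cd86, a costimulatory ligand gene with 3.41 and 2.1 FPKM in vestibular 1 and 2, against 2.97 and 0.0387 FPKM in cochlear 1 and 2. Lilrb4a has a near neighbour, listed as Lilr4b, with 24.6 and 14.7 FPKM in vestibular 1 and 2, against 35.2 FPKM in cochlear 1 and a listed 0 in cochlear 2. Cx3cr1 in GENCODE spans coding genes of both strands, and Lilrb4a overlaps the readthrough gene Gm49339, so reads could be shared there as well.

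Among the genes of lysosomal and killing proteins, Lyz2 had the highest mean of all members, and the other genes of the group lay below the C1q chain genes. Lyz2, the macrophage lysozyme gene, averaged 4674 ± 606 FPKM in vestibular and 1956 ± 2752 FPKM in cochlear cultures (SD, n = 2 each), with 10.3 FPKM in cochlear 2. The neighbouring paralog Lyz1 was at 453 and 413 FPKM in vestibular 1 and 2, against 362 and 0.853 FPKM in cochlear 1 and 2. The FPKM of Lyz1 per FPKM of Lyz2 was 0.0888 and 0.0972 in the vestibular libraries and 0.0928 and 0.0828 in the cochlear libraries, a nearly fixed share, and reads of these near-identical genes may be split. Gpnmb, a transmembrane glycoprotein gene of lysosomes and melanosomes, measured 314 and 143 FPKM in vestibular 1 and 2, against 258 and 9.62 FPKM in cochlear 1 and 2. Mpeg1, the perforin-2 gene, had 250 and 188 FPKM in vestibular 1 and 2, against 195 and 1.35 FPKM in cochlear 1 and 2. Laptm5, a lysosomal membrane protein gene of blood cells, was at 187 and 142 FPKM in vestibular 1 and 2, against 135 and 0.206 FPKM in cochlear 1 and 2. Both vestibular libraries were above cochlear 1 for Lyz2 and Laptm5, and cochlear 1 lay between them for Gpnmb and Mpeg1. Cybb, the catalytic subunit gene of the phagocyte oxidase, measured 43.5 and 36.0 FPKM in vestibular 1 and 2, against 32.9 and 0.179 FPKM in cochlear 1 and 2.

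Genes of leukocyte actin and signalling proteins mostly followed the order seen in 22 of the members. Lcp1, the gene of the actin bundler L-plastin, was at 116 and 82.5 FPKM in vestibular 1 and 2, against 103 and 1.45 FPKM in cochlear 1 and 2. Coro1a, the coronin 1A gene, had 49.8 and 40.3 FPKM in vestibular 1 and 2, against 47.8 and 0.249 FPKM in cochlear 1 and 2. Plek, the pleckstrin gene, was at 36.7 and 20.3 FPKM in vestibular 1 and 2, against 30.2 and 0.461 FPKM in cochlear 1 and 2. Cochlear 1 lay between the vestibular libraries for these 3. Aif1, which encodes the microglia and macrophage antigen IBA1, measured 40.4 and 25.6 FPKM in vestibular 1 and 2, against 23.9 and 0.270 FPKM in cochlear 1 and 2, with no overlap of the groups. Coro1a overlaps Bola2 and Plek overlaps Cnrip1 on the other strand.

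Hexim1 did not behave like the rest of the list. It encodes an inhibitor of the transcription elongation factor P-TEFb, is expressed in many cell types and is not known as a macrophage marker. Hexim1 was at 26.5 and 28.0 FPKM in vestibular 1 and 2, against 19.2 and 19.3 FPKM in cochlear 1 and 2. The groups did not overlap, and its log2 difference of 0.48 (SE 0.10) did not pass limma after adjustment (adjusted p 0.179). It was the only member as high in cochlear 2 as in cochlear 1.

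Within the cochlear group the members differed in how far cochlear 2 lay below cochlear 1. Among the 38 members at 5 FPKM or more in cochlear 1, the level in cochlear 2 divided by that in cochlear 1 had a median of 0.00255 (quartiles 0.00146 and 0.00743), against a median of 1.003 (quartiles 0.885 and 1.11) over the 9856 genes kept at that level. It was under 0.01 in 29 of the 38. The highest ratios were 1.002 for Hexim1, 0.129 for Cd14, 0.0950 for Irf8, 0.0739 for Ms4a6c, 0.0402 for Cd68 and 0.0373 for Gpnmb. Among members not listed at 0 the lowest were 0.000708 for Msr1, 0.000766 for Mrc1 and 0.000820 for Fcgr2b. Many of the values in cochlear 2 are below 1 FPKM, the number of fragments is not known, and an order among them is not to be read closely.

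**Figure D2:**
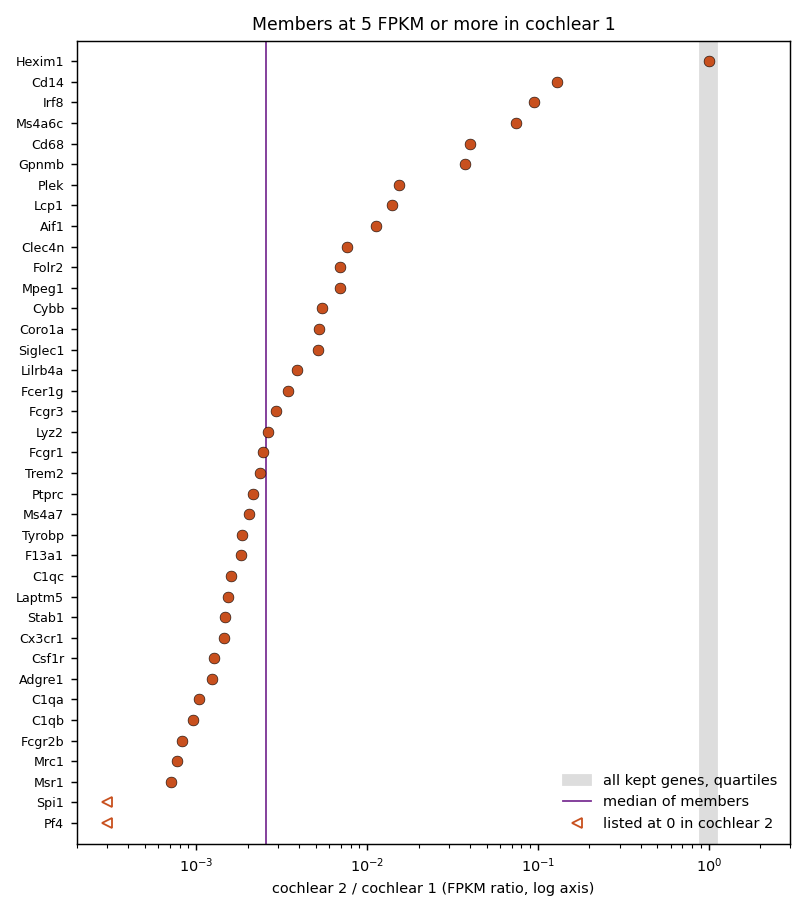
Level in cochlear 2 divided by level in cochlear 1 (horizontal log axis) for the 38 members at 5 FPKM or more in cochlear 1, with Spi1 and Pf4, listed at 0 in cochlear 2, as open triangles set at the left edge. The line is the median of the members, 0.00255, and the grey band holds the middle 50% of all kept genes at that level, from 0.885 to 1.11.

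Among the libraries with macrophage genes, the members did not keep 1 fixed proportion. The level in vestibular 1 divided by that in cochlear 1 had a median of 1.27 over the 38 members and ran from 0.400 for Pf4 to 2.11 for Siglec1. For vestibular 2 the median was 0.826, and the ratio ran from 0.172 for Pf4 to 2.003 for Clec4n. The medians over all genes kept at 5 FPKM or more in cochlear 1 were 0.984 and 0.974. For vestibular 1 the quartiles were 1.03 and 1.37 over the members, against 0.840 and 1.14 over all those genes. For vestibular 2 they were 0.646 and 1.03 over the members, against 0.790 and 1.17. All those genes thus spread about as widely, and the lack of 1 fixed proportion is not particular to the members. F13a1 had ratios of 0.784 (vestibular 1) and 0.325 (vestibular 2), and Folr2 of 0.847 and 0.268. Csf1r had 1.88 and 1.46, Cx3cr1 1.41 and 1.61, and Ms4a7 1.52 and 1.44. Both ratios of a gene are divided by the same cochlear 1 value, which alone can place them on the same side of the medians, so their agreement is no independent support. The order of the 4 libraries was vestibular 1, cochlear 1, vestibular 2, cochlear 2 in 22 of the 43 members. It was cochlear 1, vestibular 1, vestibular 2, cochlear 2 in 8 (Fcgr1, Fcgr2b, Cd14, Msr1, F13a1, Folr2, Pf4 and Lilrb4a), and vestibular 1, vestibular 2, cochlear 1, cochlear 2 in 8 (Csf1r, Csf3r, Ms4a7, Lyz2, Cybb, Laptm5, Aif1 and Timd4). Each point of this comparison is a single library, so it has no replicate check.

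**Figure D3:**
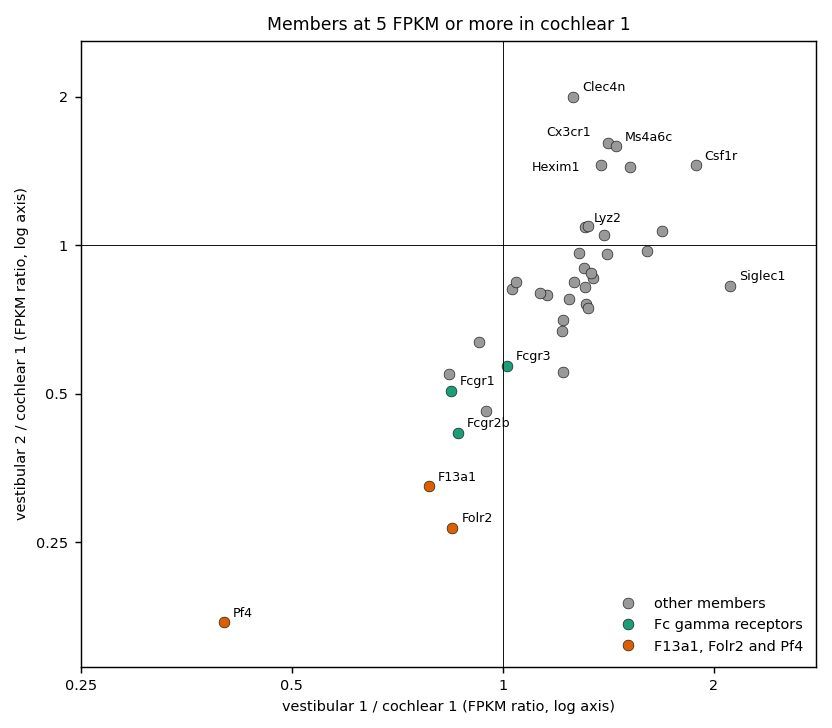
Level in vestibular 1 (horizontal) and in vestibular 2 (vertical) divided by that in cochlear 1, on log axes, for the 38 members at 5 FPKM or more in cochlear 1. F13a1, Folr2 and Pf4 lie at the lower left, with Pf4 at 0.400 and 0.172, and Csf1r, Cx3cr1, Ms4a6c and Clec4n lie at the upper right, and both axes share cochlear 1 as the divisor.

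Genes far lower in 1 library alone were counted for each library in the same way, as those at or below 1/20 of the lowest of the other 3, which had to be at least 5 FPKM. In cochlear 2 these were 152 of 8971 genes (1.69%), and 32 of the 38 members that could be counted were among them. The members outside were Irf8, Cd14, Cd68, Ms4a6c, Gpnmb and Hexim1. The same count was 7 genes (0.0807%) in vestibular 1, 14 (0.158%) in vestibular 2 and 3 (0.0346%) in cochlear 1, with 0 members in each, though only 5 members could be counted there. Genes at least 20 times higher in 1 library alone numbered 12 (0.122%) in vestibular 1, 25 (0.258%) in vestibular 2, 12 (0.122%) in cochlear 1 and 13 (0.135%) in cochlear 2, with 0 members among them.

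**Figure D4:**
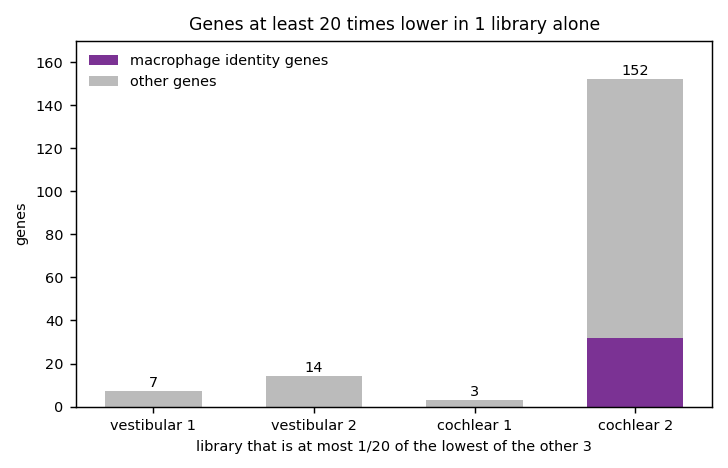
Number of genes (vertical axis) at or below 1/20 of the lowest of the other 3 libraries, for each library, with the macrophage identity genes in purple. Vestibular 1, vestibular 2 and cochlear 1 have 7, 14 and 3, and cochlear 2 has 152 such genes, 32 of them members.

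Of the 152 genes far lower in cochlear 2 alone, besides the members, 40 were in the lists set beside the members, 8 were small RNA or clone names and 72 were in no list. The 15 of the 72 with the largest ratios, leaving out those listed at 0, were Hmha1, Lyz1, Il10ra, Cyth4, Pld4, Tlr8, Cd180, Lair1, Themis2, Sash3, Evi2a, Cd33, Hk3, Tnfaip8l2 and Pirb. Several encode receptors of myeloid cells, among them Il10ra, the interleukin 10 receptor gene, with 14.03 and 12.4 FPKM in vestibular 1 and 2, against 9.95 and 0.0275 FPKM in cochlear 1 and 2. Tlr8, a Toll-like receptor gene, had 16.2 and 12.2 FPKM in vestibular 1 and 2, against 11.95 and 0.0611 FPKM in cochlear 1 and 2. Pld4, a phospholipase D family gene, was at 93.1 and 66.1 FPKM in vestibular 1 and 2, against 64.6 and 0.204 FPKM in cochlear 1 and 2. Of the 15, both vestibular libraries lay above cochlear 1 in Hmha1, Lyz1, Il10ra, Pld4, Tlr8, Cd180 and Cd33, cochlear 1 was the highest in Hk3 and Pirb, and it lay between the vestibular libraries in the others.

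Other genes of the myeloid programme were read from lists set beside the members. Over all 22 such lists, which also cover other cell types, ligands, complement and housekeeping genes, limma called 0 of the 154 genes kept. Of 32 further macrophage and myeloid genes, 31 had a positive log2 difference, 0 passed, and 19 of the 27 that could be counted were at or below 1/20 in cochlear 2. Ctss, the cathepsin S gene, was at 387 and 270 FPKM in vestibular 1 and 2, against 417 and 1.02 FPKM in cochlear 1 and 2. Cd52, a small leukocyte surface antigen gene, was at 128 and 96.7 FPKM in vestibular 1 and 2, against 145 FPKM in cochlear 1 and a listed 0 in cochlear 2. Lgals3, the galectin-3 gene, which other cells also express, had 369 and 142 FPKM in vestibular 1 and 2, against 531 and 167 FPKM in cochlear 1 and 2. Of 5 oxidase genes 4 were at or below 1/20 in cochlear 2. Ncf1, a cytosolic subunit gene, measured 55.6 and 40.6 FPKM in vestibular 1 and 2, against 34.9 and 0.215 FPKM in cochlear 1 and 2, whereas Cyba, the membrane partner gene of Cybb, had 200 and 159 FPKM in vestibular 1 and 2, against 158 and 76.5 FPKM in cochlear 1 and 2. Among 10 leukocyte actin regulators the count was 8 of 10, with Nckap1l, the HEM1 gene, at 44.0 and 35.5 FPKM in vestibular 1 and 2, against 38.5 and 0.0600 FPKM in cochlear 1 and 2. The exceptions were Arpc1b, which encodes an actin nucleator subunit, and Arhgdib, with 178 (Arpc1b) and 36.5 FPKM (Arhgdib) in cochlear 2.

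Signalling genes downstream of the ITAM adaptors split in the same way. Of 12 that could be counted 6 were at or below 1/20 in cochlear 2, all 13 kept had a positive log2 difference, and 0 passed limma. Syk, the kinase gene that acts on ITAM motifs, was at 11.4 and 9.16 FPKM in vestibular 1 and 2, against 9.73 and 0.203 FPKM in cochlear 1 and 2. Ptpn6, the gene of the phosphatase SHP-1, was at 36.3 and 27.6 FPKM in vestibular 1 and 2, against 26.9 and 7.80 FPKM in cochlear 1 and 2, and Prkcd, a protein kinase C gene of many tissues, at 52.7 and 49.4 FPKM in vestibular 1 and 2, against 56.2 and 39.5 FPKM in cochlear 1 and 2. Myeloid transcription factor genes outside the members were mostly still present in cochlear 2, where 1 of the 11 that could be counted (Irf5) was at or below 1/20. Ikzf1, the Ikaros gene, was too low to be counted, with 5.36 and 3.86 FPKM in vestibular 1 and 2, against 3.78 and 0.0199 FPKM in cochlear 1 and 2. Cebpa, for example, measured 26.5 and 33.3 FPKM in vestibular 1 and 2, against 31.4 and 42.8 FPKM in cochlear 1 and 2.

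Of the genes for macrophage growth and survival ligands, 6 of 8 were kept, and 0 were at or below 1/20 in cochlear 2. Csf1, the ligand gene for the receptor encoded by Csf1r, was at 98.4 and 78.8 FPKM in vestibular 1 and 2, against 69.2 and 83.5 FPKM in cochlear 1 and 2. Il34, the other ligand gene of that receptor, had 11.2 and 46.7 FPKM in vestibular 1 and 2, against 10.8 and 11.4 FPKM in cochlear 1 and 2. Cx3cl1, the fractalkine gene, was at 73.7 and 146 FPKM in vestibular 1 and 2, against 76.7 and 63.7 FPKM in cochlear 1 and 2. Csf2, a myeloid growth factor gene, was listed at 0 in all 4. Cochlear 2 lay within the range of the other libraries for Csf1 and Il34 and below it for Cx3cl1. The ligand list as a whole was lowest there, with a sum of 640 and 475 FPKM in vestibular 1 and 2, against 388 and 298 FPKM in cochlear 1 and 2. Of 8 complement genes outside C1q that could be counted 0 were at or below 1/20 there. C1s1 and C1ra, the proteases that join C1q in the C1 complex, were not low in that library. C1s1 had 85.2 and 38.9 FPKM in vestibular 1 and 2, against 43.3 and 47.4 FPKM in cochlear 1 and 2, and C1ra had 41.4 and 25.8 FPKM in vestibular 1 and 2, against 35.9 and 40.9 FPKM in cochlear 1 and 2.

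Marker genes of other blood cells were mostly at or near 0 in every library. In the T cell list 7 of 9 genes were under 1 FPKM in all 4 libraries, and Cd3d and Cd3g were listed at 0 in all. The B cell list had 6 of 7 under 1 FPKM, the NK cell list 7 of 7, the neutrophil list 9 of 10, the mast cell list 8 of 9, the dendritic cell list 6 of 8 and the monocyte list 5 of 6. Flt3 was listed at 0 in all 4 libraries, and Ccr2, a receptor gene of circulating monocytes, reached at most 0.136 FPKM. Itgax, a gene of dendritic cells and some macrophages, was at 2.30 and 0.469 FPKM in vestibular 1 and 2, against 8.97 and 0.0945 FPKM in cochlear 1 and 2. Gata2, the exception of the mast cell list and a gene of several tissues, had 15.8 and 33.1 FPKM in vestibular 1 and 2, against 18.5 and 18.9 FPKM in cochlear 1 and 2. Thy1, which fibroblasts also express, is the abundant exception of the T cell list, at 340 and 205 FPKM in vestibular 1 and 2, against 134 and 112 FPKM in cochlear 1 and 2.

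Genes known from brain microglia went different ways in cochlear 2. Of the 9 in the list 8 were kept, 2 of the 5 that could be counted were at or below 1/20 in cochlear 2, and 5 of the 9 were under 1 FPKM there. The list summed to 588 and 521 FPKM in vestibular 1 and 2, against 467 and 66.4 FPKM in cochlear 1 and 2. Fcrls, an Fc receptor-like gene, was at 229 and 209 FPKM in vestibular 1 and 2, against 231 and 0.0506 FPKM in cochlear 1 and 2. P2ry12, a purinergic receptor gene, was at 6.98 and 6.19 FPKM in vestibular 1 and 2, against 3.47 FPKM in cochlear 1 and a listed 0 in cochlear 2. Sall1 was as high in cochlear 2 (2.89 FPKM) as in cochlear 1 (2.797 FPKM), so it did not follow the members, and Tmem119 had 11.0 and 19.4 FPKM in vestibular 1 and 2, against 10.4 and 2.36 FPKM in cochlear 1 and 2. Of 11 osteoclast genes 6 were kept and 0 of the 2 that could be counted were at or below 1/20 in cochlear 2, with a summed level of 96.4 and 137 FPKM in vestibular 1 and 2, against 83.1 and 44.1 FPKM in cochlear 1 and 2. Among them Calcr and Ocstamp were under 0.1 FPKM in all 4 libraries, and Atp6v0d2 had 12.9 and 4.84 FPKM in vestibular 1 and 2, against 22.6 and 0.0393 FPKM in cochlear 1 and 2.

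Activation genes were mostly low. Il1b and Tnf, inflammatory cytokine genes, had 1.40 and 1.68 FPKM (Il1b) and 3.26 and 4.04 FPKM (Tnf) in vestibular 1 and 2, against 1.40 (Il1b) and 3.002 FPKM (Tnf) in cochlear 1, and both were listed at 0 in cochlear 2. Arg1, the arginase 1 gene, differed between libraries of the same group, with 47.3 and 0.371 FPKM in the vestibular and 169 and 0.853 FPKM in the cochlear libraries. Its high values were in library 1 of each group. Retnla and Chil3, of the same list as Arg1, were listed at 0 in every library.

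Marker lists of other cell types also differed between the libraries. The median of the epithelial list was 5.30 and 2.88 on the log2(FPKM + 1) scale in vestibular 1 and 2, against 6.75 and 7.08 in cochlear 1 and 2, and that of the fibroblast and matrix list was 8.48 and 7.78 in vestibular 1 and 2, against 7.20 and 6.51 in cochlear 1 and 2. Cochlear 2 was thus highest in the epithelial list and lowest in the fibroblast list, and the part of these differences in the macrophage result was not tested. The housekeeping median was 9.25 and 8.72 in vestibular 1 and 2, against 9.99 and 9.65 in cochlear 1 and 2. Totals of FPKM ran from 479380 to 519122, and genes at 1 FPKM or more from 12644 to 13094, each lowest in cochlear 2.

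**Figure D5:**
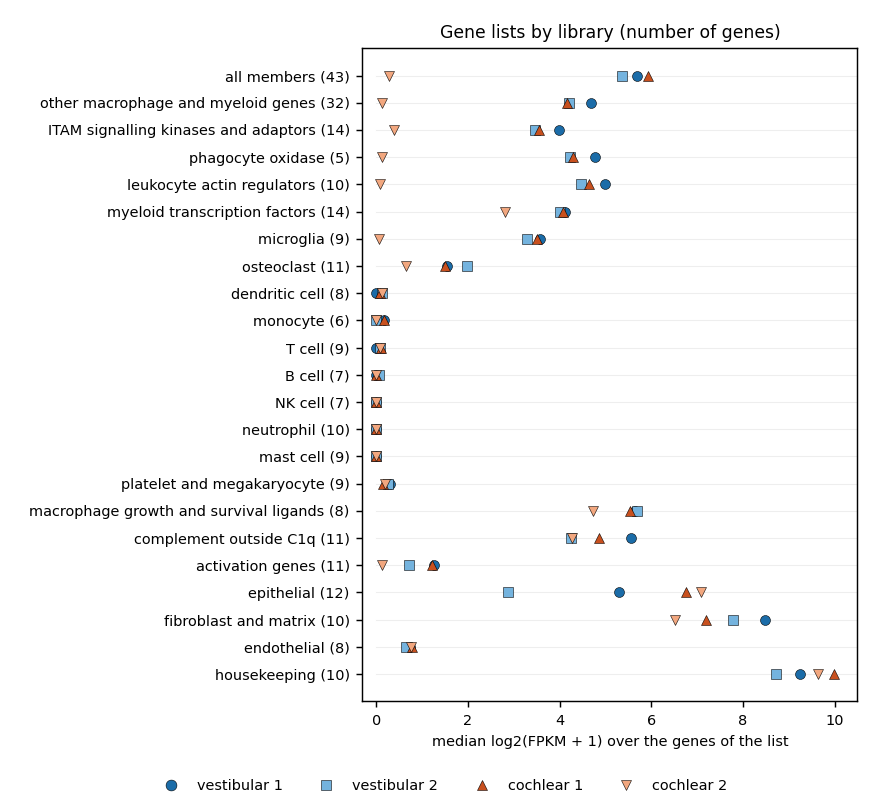
Median log2(FPKM + 1) of each gene list (horizontal axis) in the 4 libraries (symbols), with the number of genes read in brackets. For the members the medians are 5.69 and 5.37 in vestibular 1 and 2, against 5.92 and 0.27 in cochlear 1 and 2, and cochlear 2 also lies far left for most myeloid lists. It lies within their range for complement and housekeeping genes and above it for epithelial genes. For ligands it lies below, at 4.73, against 5.65 and 5.70 in vestibular 1 and 2 and 5.54 in cochlear 1.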

How the data were processed

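RNA sequencing libraries of inner ear cultures (2 vestibular, 2 cochlear) were grouped by the cell type label. Per the labels' protocols, TRIzol was used for extraction and a TruSeq stranded mRNA kit for the libraries. The deposited values are FPKM, per the file headers. The submitters' processing notes name mm10 and, without roles, Cuffdiff 2.2.1, SAMtools 0.1.18, Bowtie2 2.2.8 and TopHat2 2.1.1. How these were set, which annotation they used, whether strand was counted, how samples were scaled and how many fragments each had is not given in the sources used here. Because depth is unknown, no counting interval is given.

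Values were taken as log2(FPKM + 1), which understates the change of low genes, for the 13200 genes with a mean of at least 1 FPKM, and limma 3.58.1 under R 4.3.3 tested vestibular minus cochlear (eBayes with trend, 2-sided, Benjamini-Hochberg over all genes kept, threshold 0.05). The fit was tested on simulated data with the same spread for every gene. Such data hold no library that stands apart as cochlear 2 does here. A log2 difference is vestibular minus cochlear. Standard errors are limma's. No count model was used. The members, the lists and their roles were chosen with earlier results of these data known. All members are named. Of the lists set beside them only some genes are named, not always those with the highest mean, and some were chosen after their values were seen. Positions are from GENCODE M21 on GRCm38, the assembly of mm10, and promoters from RefSeq on GRCm38.p6 (250 bases before and 50 after each start). Protein sequences were not used here. Ly6g, of the neutrophil list, was not matched. Libraries sharing a number were not taken as pairs, since no label says so. Some genes of the lists are not reported here by name.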

Additional observations from a re-analysis of the deposited data

How the results depend on the processing

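The direction of the 40 members kept was the same with a pseudocount of 0.1, with no filter on low values, with quantile normalization, with the replicate number as a block and without vestibular 1, vestibular 2 or cochlear 1, and limma called 0 members in each of these fits, with adjusted p from 0.104 to 0.907. Without cochlear 2, 19 members turned negative. Their log2 differences over the 4 fits that leave out 1 library ranged as follows: Tyrobp -0.024 to 7.85, Trem2 -0.0076 to 6.64, C1qb -0.064 to 8.43, Fcgr1 -0.56 to 3.42, Fcgr2b -0.73 to 6.46, Fcgr3 -0.39 to 6.21, Cd14 -0.54 to 2.202, Cd68 -0.11 to 4.40, Msr1 -0.58 to 4.64, F13a1 -0.97 to 5.90, Folr2 -1.04 to 4.39, Pf4 -1.89 to 4.74, Ptprc -0.12 to 3.99, Cd86 -0.10 to 1.83, Lilrb4a -0.37 to 5.13, Gpnmb -0.28 to 4.33, Lcp1 -0.073 to 5.34, Coro1a -0.091 to 5.20, Plek -0.14 to 4.28. The median difference of the members was 3.66 with a pseudocount of 0.1 and ran from 0.023 (without cochlear 2) to 5.27 (without cochlear 1) on leaving out 1 library. Members with groups that do not overlap numbered 11 to 40 and members at an unadjusted p under 0.05 numbered 1 to 39 over those fits. The 40 and the 39 both come from the fit without cochlear 1, where cochlear 2 is the only cochlear library. They therefore rest on cochlear 2 alone. Groups often do not overlap when 1 library is left in a group. Without cochlear 2, vestibular values lay above in 36.5% and below in 36.8% of all genes kept. All genes called numbered 4, against 2 with no filter, 0 with the replicate block and 0 on leaving out any library (1018 to 2724 genes then had an unadjusted p under 0.05). The replicate block leaves fewer residual degrees of freedom. The correlation of same-numbered deviations was 0.0432 across genes, a single value that cannot show whether libraries sharing a number are paired. With a minimum of 20 FPKM, 62 of 3659 genes (1.69%) and 25 of 28 members were at or below 1/20 in cochlear 2. These counts are lower than at 5 FPKM since fewer genes can be counted, and the share of all genes was 1.69% at both minimums. Fragment numbers are unknown, so values under 1 FPKM set no reliable order.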
